A study of Mus musculus with 12 samples.

Results

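Crossover formation genes were examined in 3 dREG peak lists of mouse prophase I spermatocytes. The 9 genes were Msh4, Msh5, Mlh3, Exo1, Rnf212, Ccnb1ip1, Cntd1, Hfm1 and Mus81, out of 21951 protein-coding genes in the GENCODE M21 annotation. They were chosen by name, and a peak was given to a gene when its nearest edge lay under 1000 bp from any annotated transcription start site (TSS) of that gene (TSS-proximal peak). A peak that touched the rest of the transcribed span was counted as a gene-body peak. By this rule the genes held 24 of the 71107 peaks in the leptonema/zygonema list, 24 of 68352 in the pachynema list and 16 of 38603 in the diplonema list. With peaks up to 100 bp apart merged, each list held 12. A further 4, 4 and 2 peaks, as deposited, lay in their gene bodies.

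The cells were wild-type (WT) spermatocytes from adult mice, enriched by STAPUT, a separation of testis cells by size and density at unit gravity. The paper reports fractions that were enriched but not pure, with possible contamination by germ cells of earlier or later stages. The 3 groups were leptonema/zygonema, pachynema and diplonema, with 4 libraries each, and the labels name no treatment. leChRO-seq, a run-on assay that labels RNA still attached to chromatin-bound polymerase, was performed on each library. dREG then read the pattern of polymerase starts on both strands and called peaks where promoters and enhancers were active, on the 4 libraries of a substage merged into 1 file. The mice of the study were of the C57Bl/6J or DBA/2J background, and the labels used here do not tie a strain to a library. The paper names DBA/2J for its drug-injected mice and gives no strain for the mice that were sorted. Because each substage had 1 pooled peak list, no value below has a replicate error and no test was possible. The peak lists hold no read counts, so the depth behind each peak is not known here.

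During prophase I, double-strand breaks are repaired from the homologous chromosome, and only a minority of the repair intermediates become crossovers. MutSγ, the heterodimer of MSH4 and MSH5, holds recombination intermediates, and MutLγ, which contains MLH3, resolves those that will become crossovers. RNF212, HEI10 (the product of Ccnb1ip1) and CNTD1 act between these steps and reduce the many MutSγ sites to the few that mature. Structure-specific nucleases such as MUS81 give a minor class of crossovers that does not depend on this pathway. MutSγ foci appear from zygonema and MutLγ foci in pachynema.

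All 9 genes had at least 1 TSS-proximal peak in each substage. Among all protein-coding genes, 60.1% (leptonema/zygonema), 60.5% (pachynema) and 51.6% (diplonema) were called, and 10851 of the 21951 were called in all 3. The calls alone did not separate the substages. dREG scores were not scaled between the lists, so each gene was described by its highest-scoring proximal peak and by the percentile of that score among all peaks of the same list. The median percentile of the 9 genes was 80.2 (leptonema/zygonema), 88.5 (pachynema) and 79.15 (diplonema), against 82.9, 84.6 and 78.6 for all called protein-coding genes. Ranked only among called protein-coding genes, the median of the set was 44.2, 59.4 and 50.9, where the midpoint of all called genes is 50.0 in each list. At the principal TSS alone, which leaves out the intron site of Msh4 and the upstream start of Ccnb1ip1, these medians among genes were 32.0, 54.9 and 30.6. The set was thus below the midpoint in leptonema/zygonema and above it in pachynema on both counts, while in diplonema its place depended on which starts were counted.

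**Figure D1:**
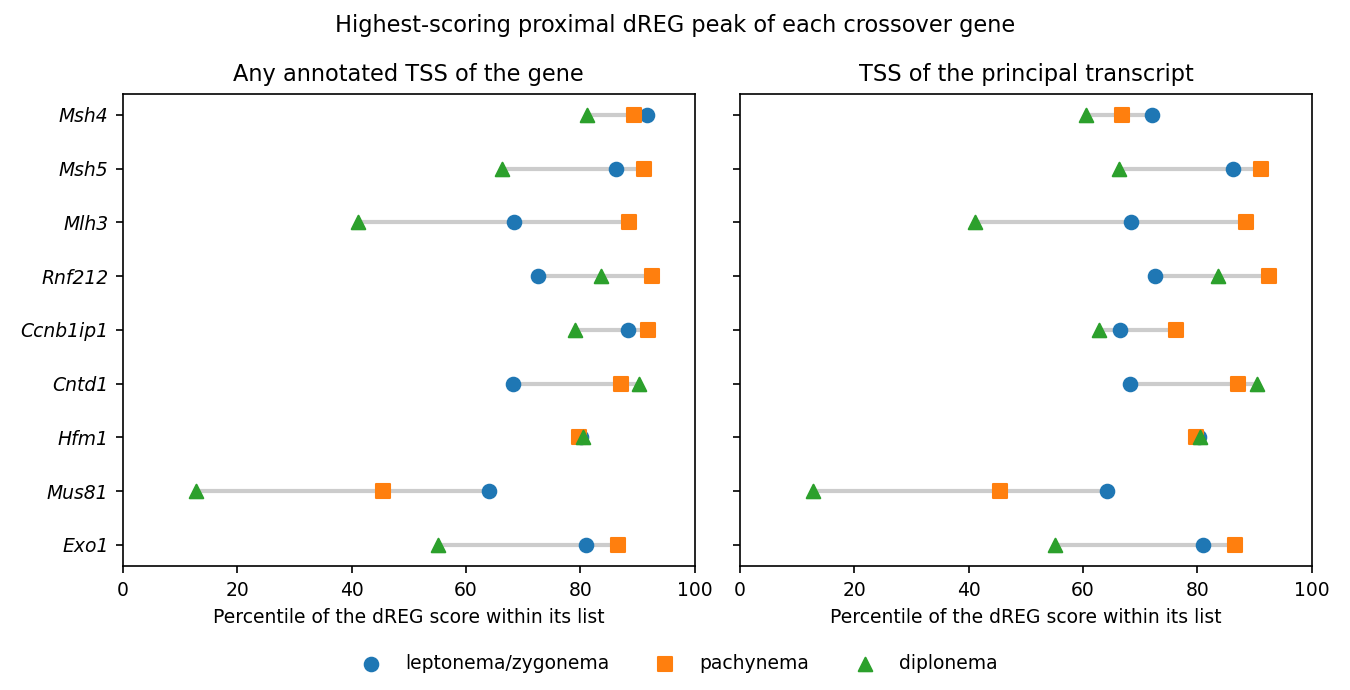
Percentile of the highest-scoring TSS-proximal dREG peak of each gene among all peaks of its list (x axis, 0 to 100), for any annotated TSS of the gene (left) and for the TSS of 1 principal transcript per gene (right). Each point is 1 pooled substage list, with no error bar because there are no replicates, and Mus81 runs from 64.1 in leptonema/zygonema to 12.7 in diplonema while the 3 points of Hfm1 overlie each other.

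Msh4 and Msh5 encode the subunits of MutSγ. Msh4 spans chr3:153857149-153906138 (mm10, minus strand) and its principal TSS is the last base of that span. The highest-scoring proximal peak of Msh4 was not at this promoter. It lay in intron 17, 40658 to 41487 bp downstream of the principal TSS in the leptonema/zygonema list (chr3:153864651-153865480), over the annotated starts of 2 short noncoding Msh4 transcripts and under 1000 bp from the snoRNA gene Gm24395, so it cannot be assigned to Msh4 alone. Its score was 1.199 (leptonema/zygonema), 1.12 (pachynema) and 0.873 (diplonema) (percentiles 91.7, 89.4 and 81.2). At the principal promoter of Msh4 the highest scores were 0.856, 0.751 and 0.624, at percentiles 71.97, 66.8 and 60.4. Among all peaks of a list, both sites of Msh4 thus ranked highest in leptonema/zygonema and lowest in diplonema. With each list cut to its 38603 highest-scoring peaks, however, the highest Msh4 peak was at 81.3 in pachynema and 81.2 in diplonema, a difference of -0.09 points. Among called genes at the principal TSS, Msh4 was at 32.0, 26.8 and 28.5, with pachynema lowest. In diplonema the highest of the promoter peaks lay just inside the gene, with its nearest edge 48 bp from the TSS, and the TSS itself lay in a second peak of score 0.554.

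Msh5 (chr17:35028605-35046745, minus strand) had its highest peak over its promoter in every list, at chr17:35046201-35047010 in pachynema. The score was 1.105 (leptonema/zygonema), 1.145 (pachynema) and 0.685 (diplonema), at percentiles 86.2, 91.1 and 66.3. The peak covered 6 annotated Msh5 starts in each list. Unlike Msh4, Msh5 ranked slightly higher in pachynema than in leptonema/zygonema, by 4.88 points, and its difference from pachynema to diplonema was -24.8 points. The 2 partners therefore differed in the order of their first 2 substages, by amounts that have no replicate error to be read against.

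The upstream DNA of the MutSγ genes, of Mlh3 and of Ccnb1ip1 is shown because these windows hold letters of the MYB family, or in Mlh3 a related form of them. This is the family of A-MYB (Mybl1), a transcription factor that acts in pachynema. The stretches are from GRCm38 (mm10), minus strand, written 5′ to 3′ in the direction of the gene without annotated exon bases, and the matched letters are in capitals.

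The Msh4 stretch is chr3:153906139-153906298, the Msh5 stretch chr17:35046746-35046872, the Mlh3 stretch chr12:85270600-85270759 and the Ccnb1ip1 stretch chr14:50795729-50795888.
Msh4: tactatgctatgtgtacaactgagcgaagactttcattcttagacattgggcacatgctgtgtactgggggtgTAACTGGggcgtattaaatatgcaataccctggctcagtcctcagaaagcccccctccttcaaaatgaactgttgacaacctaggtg
Msh5: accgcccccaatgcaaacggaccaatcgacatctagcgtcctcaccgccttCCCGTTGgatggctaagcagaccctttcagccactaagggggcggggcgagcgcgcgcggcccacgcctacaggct
Mlh3: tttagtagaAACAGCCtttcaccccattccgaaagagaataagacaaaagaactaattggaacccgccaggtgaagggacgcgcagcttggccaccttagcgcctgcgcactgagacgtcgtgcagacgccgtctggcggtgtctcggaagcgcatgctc
Ccnb1ip1: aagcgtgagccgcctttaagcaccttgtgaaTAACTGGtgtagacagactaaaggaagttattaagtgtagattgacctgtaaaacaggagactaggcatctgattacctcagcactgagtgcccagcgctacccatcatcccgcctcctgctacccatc

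The letters searched for the MYB family were CCNGTTA or CCNGTTG or GCNGTTA or GCNGTTG, and a related form was GGCNGTT, each on both strands. The forms can overlap on the same DNA, but neither contains the other. In the 300 bp from 250 bp before to 50 bp after the principal TSS, 4 of the 9 genes held a MYB family match (Msh4, Msh5, Ccnb1ip1 and Cntd1), against 30.1% of 21933 protein-coding windows and 31.3% of 13067 windows with a peak in any substage. Msh5 held 2 such matches, the second of which lies in an exon of another Msh5 transcript and is not printed. The related form was in 2 of the 9 windows (Msh5 and Mlh3), against 12.2% of all windows. The Msh5 matches lay inside a dREG peak in all 3 lists, and so did the Ccnb1ip1 match at chr14:50795851-50795857. The Msh4 match at chr3:153906219-153906225 lay wholly inside a peak only in diplonema, but this rests on where peaks were split. In pachynema it fell in the short gap between 2 called peaks, chr3:153905771-153906210 and chr3:153906231-153906590, which merging of peaks up to 100 bp apart joins. In leptonema/zygonema the peak chr3:153905731-153906220 ended within the match. The Mlh3 match at chr12:85270744-85270750 lay inside a peak only in leptonema/zygonema. The Cntd1 match lay in its first exon, 38 bp after the principal TSS, and is not printed. A match of letters is a description of the sequence and not a binding site.

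Mlh3 encodes a subunit of MutLγ. Its gene spans chr12:85234520-85270599 (minus strand). The score of its highest proximal peak was 0.802 (leptonema/zygonema), 1.099 (pachynema) and 0.468 (diplonema), at percentiles 68.5, 88.5 and 41.1. Mlh3 was 19.996 points higher in pachynema than in leptonema/zygonema, and its difference from pachynema to diplonema was -47.3 points, the largest between consecutive lists for any of the 9 genes. This peak began 129 bp after the principal TSS in leptonema/zygonema and 79 bp after it in the other lists, in the first intron. The Mlh3 TSS was itself inside a peak only in leptonema/zygonema, where a second peak of score 0.619 covered it. Counted only where the peak holds the TSS, Mlh3 would be called in leptonema/zygonema alone.

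Exo1 encodes an exonuclease that also interacts with MutLγ. Its gene spans chr1:175880581-175913489 on the plus strand. Its highest peak covered the first exon in every list, at chr1:175880411-175881130 in pachynema. The Exo1 score was 1.01 (leptonema/zygonema), 1.06 (pachynema) and 0.576 (diplonema), at percentiles 81.0, 86.5 and 55.1. The difference for Exo1 from pachynema to diplonema was -31.4 points. A second peak downstream of the promoter, over the second exon, was present in leptonema/zygonema (score 0.463) and pachynema (0.633) and was not called in diplonema.

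Rnf212 and Ccnb1ip1 encode ring-finger proteins that act on SUMO and ubiquitin at recombination sites. Rnf212 (chr5:108729290-108774982, minus strand) had its highest proximal peak over the promoter, with a score of 0.866 (leptonema/zygonema), 1.17 (pachynema) and 0.909 (diplonema). The percentiles of Rnf212 were 72.6, 92.5 and 83.65. Rnf212 was thus 19.9 points higher in pachynema than in leptonema/zygonema and remained above its leptonema/zygonema percentile in diplonema. In pachynema the promoter peak was also widest, at 1050 bp (chr5:108774551-108775600), against 680 bp in leptonema/zygonema and 590 bp in diplonema.

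Ccnb1ip1 (chr14:50789248-50807732, minus strand) has 2 annotated starts. The highest peak lay at the upstream start, at chr14:50807511-50808220 in pachynema, and this site is also under 1000 bp from the starts of Rpph1, which encodes the RNA of RNase P, and of Parp2. Its score was 1.14 (leptonema/zygonema), 1.16 (pachynema) and 0.843 (diplonema), at percentiles 88.35, 91.8 and 79.15, and it cannot be assigned to Ccnb1ip1 alone. At the principal start of Ccnb1ip1 a single peak was called in each list, with a score of 0.773, 0.886 and 0.648 (percentiles 66.4, 76.3 and 62.75). Both starts had their highest percentile in pachynema, and the principal start ranked below the shared one in each list.

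Cntd1 encodes a cyclin-like protein needed for the maturation of crossover sites. Its start (gene span chr11:101279012-101296317, plus strand) overlaps head to head with that of Coa3, which encodes a mitochondrial assembly factor on the opposite strand, and the share of each gene in the peak cannot be told apart. The Cntd1 score was 0.798 (leptonema/zygonema), 1.07 (pachynema) and 1.02 (diplonema), at percentiles 68.2, 87.1 and 90.3. Cntd1 was 18.9 points higher in pachynema than in leptonema/zygonema and was highest in diplonema. No other of the 9 genes ranked as high in diplonema. Among called protein-coding genes alone, its percentile was 27.1, 55.8 and 73.1 in the 3 lists.

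Hfm1 encodes a DNA helicase, the homolog of yeast Mer3, that stabilises early crossover intermediates. Hfm1 (chr5:106840192-106926321, minus strand) had nearly the same percentile in each list, with 80.2 (leptonema/zygonema), 79.8 (pachynema) and 80.5 (diplonema). The scores of its highest peak were 0.999, 0.944 and 0.862. The even percentiles were a matter of scale, since in lists of equal size (the 38603 highest-scoring peaks of each) they were 63.5, 64.3 and 80.5 and among called protein-coding genes 44.2, 41.2 and 53.1. Hfm1 held 4 proximal peaks in the leptonema/zygonema list, 3 in the pachynema list and 2 in diplonema. In leptonema/zygonema and pachynema the promoter was divided into separate peaks, with a second one upstream of the principal TSS (score 0.955 and 0.899), and in diplonema 1 peak of 820 bp spanned both (chr5:106925671-106926490).

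Mus81 encodes the catalytic subunit of a structure-specific endonuclease whose partner is EME1. Mus81 (chr19:5482345-5488402, minus strand) ranked lowest of the 9 genes in every list. Its highest proximal score was 0.742 (leptonema/zygonema), 0.534 (pachynema) and 0.326 (diplonema), at percentiles 64.1, 45.5 and 12.7. The difference for Mus81 was -18.6 points from leptonema/zygonema to pachynema and -32.8 points from pachynema to diplonema. These peaks were not at 1 site. The leptonema/zygonema and pachynema peaks lay 469 and 489 bp upstream of the nearest Mus81 start and covered the start of the gene model AC126029.2 (chr19:5488744-5489198, minus strand), which the annotation marks as still to be tested, and the leptonema/zygonema peak was also near Cfl1. In diplonema no peak was called there, and the highest peak covered the Mus81 start. The highest-scoring peaks that held a Mus81 start scored 0.591, 0.384 and 0.326, but these too were not at 1 site. Over the annotated start at chr19:5487935 the scores were 0.591, 0.384 and 0.279, the same order of substages as for the highest peaks. The principal start lay inside a peak in pachynema (0.343) and diplonema (0.326), with nearly level percentiles (13.64 and 12.73). In leptonema/zygonema the peak nearest to it, 99 bp upstream, scored 0.288, so the order did not hold there. With each list cut to its 38603 highest-scoring peaks, the percentile of Mus81 was instead 9.16 points higher in diplonema than in pachynema. Eme1 was called with low scores in leptonema/zygonema (0.389) and pachynema (0.375) and was not called in diplonema.

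**Figure D2:**
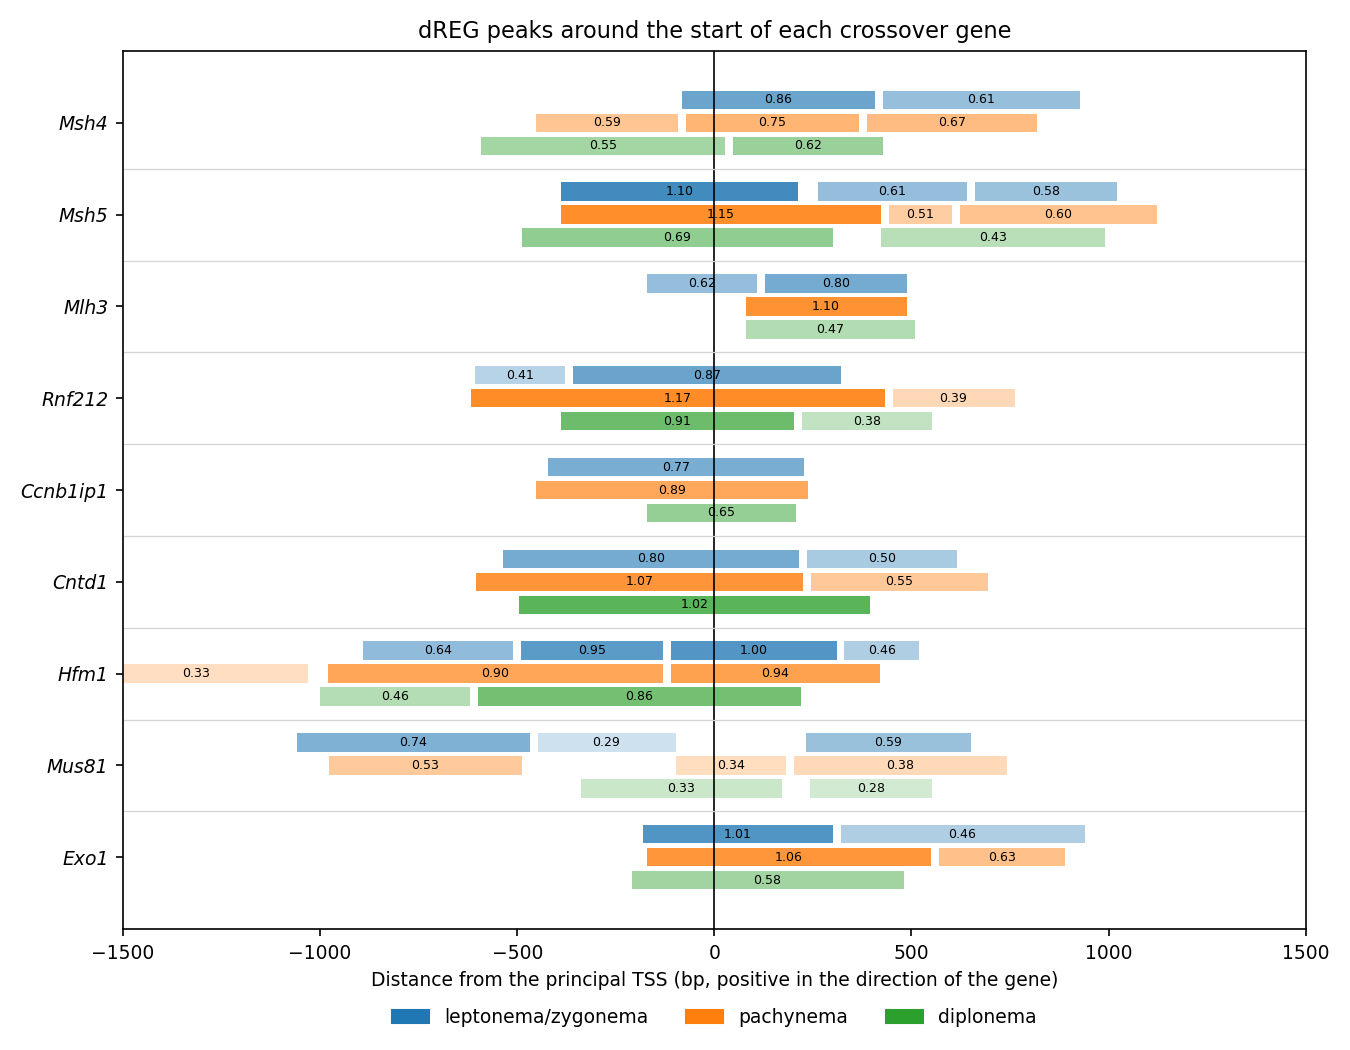
Each bar is 1 dREG peak, placed by its distance in bp from the principal TSS (x axis, 0 marked by the line, positive into the gene), with a darker bar for a higher score and the score printed on it. Rows within a gene are leptonema/zygonema, pachynema and diplonema from top to bottom, and peaks over 1500 bp away are not drawn, which leaves out the intron site of Msh4 and the upstream start of Ccnb1ip1. The Mlh3 start is inside a bar only in leptonema/zygonema, and the upstream Mus81 bar is missing in diplonema.

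Between leptonema/zygonema and pachynema, 3 of the 9 genes were higher by 10 points or more (Mlh3, Rnf212 and Cntd1) and 1 was lower (Mus81). Of the 12498 protein-coding genes called in both lists, 16.6% were higher and 14.4% lower by that much. The median difference was 4.88 points for the 9 genes and 1.07 points for all genes. Between pachynema and diplonema, 0 of the 9 were higher by 10 points or more and 5 were lower (Mlh3, Mus81, Exo1, Msh5 and Ccnb1ip1), against 4.55% higher and 40.5% lower among 11166 genes. The median difference was -12.6 points for the 9 genes and -6.20 points for all genes. The diplonema list is the shortest, and these differences depended on list length. With each list cut to its 38603 highest-scoring peaks, 2 of the 9 genes were higher and 3 lower in diplonema, with a median difference of -3.03 points, while 24.3% of 10659 protein-coding genes were higher and 21.4% lower, with a median of 1.20 points. From leptonema/zygonema to pachynema, 4 of the 9 were then higher and 1 lower, with a median of 9.63 points, against 28.3% higher and 16.8% lower of 10844 genes and a median of 2.67 points. With 9 genes and no replicates, these counts describe the set and do not show that it differs from other genes. For every gene but Mus81 the highest peaks of consecutive lists overlapped, so the same site was compared, while for Mus81 those of pachynema and diplonema did not overlap (0 bp).

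**Figure D3:**
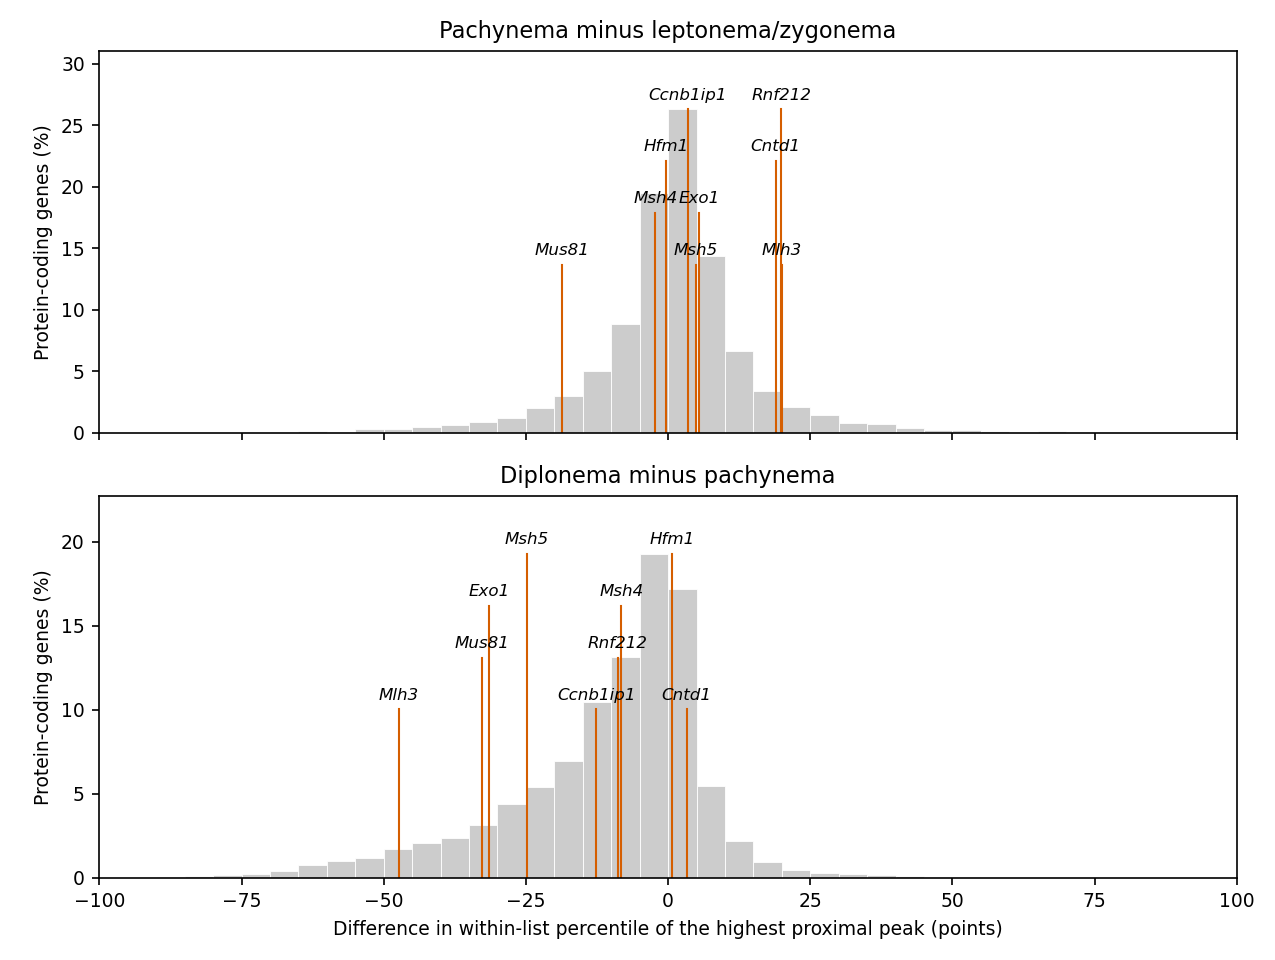
Grey bars give the share of protein-coding genes (y axis, percent) by the difference in percentile points of their highest proximal peak between consecutive lists (x axis, bins of 5 points), for 12498 genes in the upper panel and 11166 in the lower one. Vertical lines mark the 9 crossover genes, with line height set only for legibility. Mlh3, Rnf212 and Cntd1 stand together near 20 points in the upper panel, and Mlh3 is at -47.3 in the lower one.

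Gene-body peaks were fewer. They were present in 4 of the 9 genes in leptonema/zygonema (Msh4, Rnf212, Hfm1 and Exo1), 2 in pachynema (Rnf212 and Hfm1) and 1 in diplonema (Rnf212), while 28.6%, 26.9% and 15.8% of all protein-coding genes held one. The strongest was in intron 2 of Rnf212, at chr5:108763571-108764280 in leptonema/zygonema, 10702 bp from the principal TSS. It lay at the start of 1700047L14Rik, a noncoding gene on the opposite strand. Its score was 1.205 (leptonema/zygonema), 0.9 (pachynema) and 0.460 (diplonema), at percentiles 92.1, 77.2 and 39.75. A second, weaker peak was called beside it in pachynema (score 0.383). This site had its order reversed against the Rnf212 promoter over the first 2 substages, since the antisense start was highest in leptonema/zygonema and the promoter in pachynema. dREG joins the signal of both strands, and the 2 strands of the intron site were not told apart here. A weak peak in intron 3 of Rnf212 was called in pachynema (score 0.346) and diplonema (0.318). In Hfm1 a peak in intron 3, 4690 bp from the principal TSS, had a score of 0.633 in leptonema/zygonema and 0.546 in pachynema and was not called in diplonema. The single gene-body peaks of Msh4 (0.313) and Exo1 (0.303) were called in leptonema/zygonema and in no other list, near the lower end of a list whose lowest score is 0.246.

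Other genes of the crossover pathway were taken as a list of 24, of which 23 were matched in the annotation. Of these, 20 (leptonema/zygonema), 20 (pachynema) and 19 (diplonema) were called, with a median percentile of 91.1, 92.1 and 87.3. AI481877 (the annotation's name for Shoc1, which encodes a binding protein of crossover intermediates) and Eme2, a second partner of Mus81, had no proximal peak in any list. Prr19, which works with Cntd1, was called in leptonema/zygonema alone (score 0.639), and Slx1b, a nuclease subunit, in pachynema (0.458) and diplonema (0.405). Between leptonema/zygonema and pachynema the largest differences upward included those of Rmi2 (8.17 points), a member of the complex that dissolves joint molecules, and of the helicase gene Brip1 (6.98 points). The largest downward were those of the mismatch repair gene Pms2 (-8.48 points), the topoisomerase gene Top3a (-5.93 points) and the nuclease scaffold gene Slx4 (-2.61 points). Of the 19 genes of this list called in both substages, 0 differed by 10 points or more among all peaks, against 4 of the 9 crossover formation genes. Ranked among called protein-coding genes, 4 of the 19 were higher and 5 lower by that much, against 3 higher and 2 lower of the 9, so the contrast depended on the scale.

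Lists for neighbouring steps of recombination were described in the same way. Strand exchange and repair genes were called in 21, 21 and 19 of 21 cases, with median percentiles of 91.5, 95.6 and 91.7. Synaptonemal complex genes were called in 10 of 11 in each list (all but Sycp2l), with medians of 90.2, 94.5 and 96.95. Double-strand break formation genes were called in 8 of 10 in each list (Mei1 and Ccdc36, also known as Iho1, were not), with medians of 88.2, 89.0 and 75.4. The synaptonemal complex list had its highest median in diplonema. The crossover formation genes had theirs in pachynema, as did the strand exchange, double-strand break and other crossover-pathway lists. All called protein-coding genes did too, with medians of 82.9, 84.6 and 78.6. The crossover formation genes had a lower median than the strand exchange and synaptonemal complex lists in every substage; these differences were not tested.

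**Figure D4:**
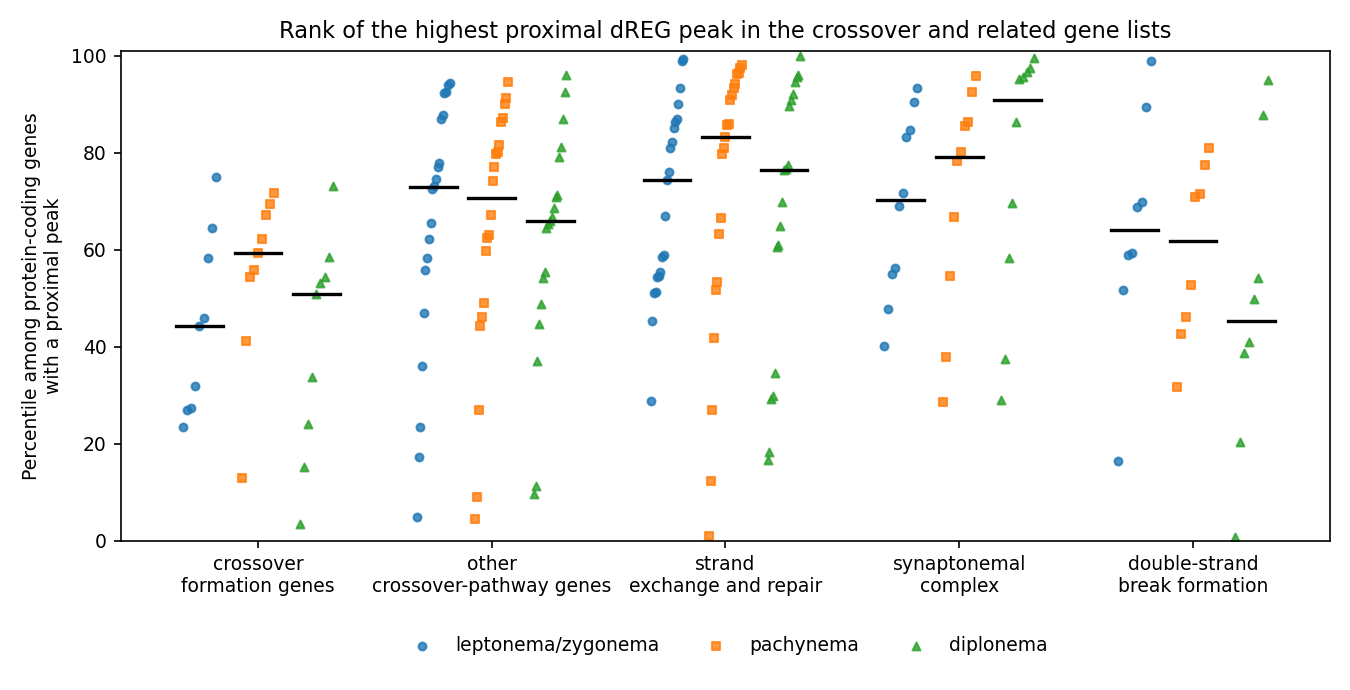
Percentile of each gene's highest proximal peak among all called protein-coding genes of its substage (y axis, 0 to 100, midpoint of all genes at 50.0), for the crossover formation genes and 4 related lists. Points are genes, horizontal lines are medians, and genes without a proximal peak are not drawn. The median of the crossover formation genes goes from 44.2 to 59.4 to 50.9, and that of the synaptonemal complex list is 90.8 in diplonema.

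Other letters were searched in the same promoter windows. The letters CNCCTCAG, reported for STRA8, a factor of meiotic entry, were in 2 of the 9 windows (1 match in Msh5 and 2 in Hfm1), against 8.46% of all windows. CCAAT was in 5 of 9, against 38.4% of all windows and 38.5% of those with a peak. The GC box GGGCGG was in 4 of 9, against 45.5% of all windows and 62.9% of those with a peak. The RFX letters GTTGCCA or GTTGCTA and the CREB letters TGACGTCA or TGACGTAA were in 0 of 9, against 7.54% and 3.04%. The hexamers GCAGTT and CAGTTG were in 1 and 2 windows, against 12.9% and 12.4%. The median GC content of the 9 windows was 52.0%, against 56.0% of all windows and 60.7% of those with a peak. It ranged from 46.0% in Msh4 to 75.3% in Hfm1. At the principal TSS, an opposite-strand start of another gene within 1000 bp was found for 1 of the 9 (Cntd1), against 18.9% of all genes and 28.1% of those with a peak.

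The labelled cell types were checked against marker genes. All 8 spermatocyte markers, Sycp1, Sycp3 and Dmc1 among them, were called in each list. Of 5 markers of leptonema/zygonema 5, 5 and 4 were called, with median percentiles of 79.1, 89.0 and 92.0. Of 7 markers of pachynema and later 6, 7 and 6 were called, with medians of 82.3, 89.4 and 79.1, and all 4 diplonema markers were called in each list, with medians of 94.6, 95.3 and 93.6. These medians cover called genes only, and the stage markers did not all follow the substage labels. Markers of pachynema and later had their highest median and their most calls in pachynema, but the single genes differed. By percentile, Mybl1, Spag6 and Adad2 were highest in pachynema, Piwil1 and Pou5f2 in diplonema, and Hist1h1t and Brdt in leptonema/zygonema. Among the leptonema/zygonema markers, Stra8 was at percentiles 65.1 and 50.9 and was not called in diplonema, while Dmrtb1 was at 12.5, 78.5 and 96.4. Markers of other testis cells were also called, while 60.1%, 60.5% and 51.6% of all protein-coding genes were called in the 3 lists. The paper proposes that transcription of many spermatogenesis genes begins by leptonema. A call therefore does not by itself show that another cell type was present. Of 8 spermatid genes 7 were called in each list, Prm1 and Prm2 through 1 shared peak, and of 6 spermatogonial genes 5. Of 6 Sertoli cell genes 2, 4 and 3 were called, with median percentiles of 48.6, 60.2 and 43.1, and Amh and Rhox5 were in no list. Of 5 Leydig cell genes, Cyp11a1 was called in pachynema alone, and none of 4 macrophage and 2 peritubular myoid genes was called in any list. Any part of other cell types in the ranks of the crossover formation genes was not tested.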

How the data were processed

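leChRO-seq reads of 12 libraries were processed by the authors: duplicates were removed by molecular identifier, adapters were cut with cutadapt, reads were mapped with BWA to mm10, and dREG was run with default settings on the merged libraries of each substage. The deposited peak lists hold a dREG score, a p-value (at most 0.05, its adjustment not given in the sources used here) and a peak centre, with no scaling between lists. The authors' calls were used as deposited, except that peaks were assigned to GENCODE M21 starts (141767 transcripts) by nearest edge, under 1000 bp.

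Percentiles were computed within each list with tied scores counted at their midpoint, in Python 3.11.15 with pandas 2.3.3 and numpy 2.4.6, and figures with matplotlib 3.10.9. The principal transcript had the best APPRIS tag, then support level, then length. Promoter windows were read from GRCm38, whose chromosome lengths held every peak. Distance assignment, ranks and letter searches were checked on simulated data. Since 4 libraries were pooled in each substage, results are counts and ranks without a test.

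The members and lists were chosen with earlier results of these data known. All members are named. Of the other pathway genes, those not called in at least 1 list and those with the 3 largest differences in each direction between leptonema/zygonema and pachynema are named, and of comparison lists those called in no list. Some genes under this rule are not reported here. Alternatives were other distances, principal starts, unshared peaks, stricter peaks (score of at least 0.5 or p of at most 0.01), lists of equal size (38603 peaks), merging of peaks up to 100 bp apart, other ranks and other limits for a difference.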

Additional observations from a re-analysis of the deposited data

How the results depend on the processing

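No paired analysis was possible because the libraries of each substage were pooled before peaks were called. Nor could a single library be left out. All 9 genes stayed called in each list with a limit of 500 bp, the principal start, a distance from the peak centre, p of at most 0.01, lists of equal size or merged peaks. In leptonema/zygonema, pachynema and diplonema, 9, 8 and 8 were called when the start had to lie inside the peak, 8, 7 and 8 without peaks near another gene, and 9, 9 and 7 at a score of at least 0.5. Proximal peaks in the same order numbered 14, 14 and 12 when the start had to lie inside the peak, 12, 12 and 12 when close peaks were merged, which removed the gap between the lists, 15 in pachynema when peaks near another gene were left out, and 10 in diplonema at a score of at least 0.5.

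The median percentile in leptonema/zygonema, pachynema and diplonema was 71.97, 86.53 and 62.75 at the principal start, 72.28, 86.53 and 61.58 for unshared peaks, 67.16, 80.43 and 64.13 at a score of at least 0.5, 76.9, 86.53 and 75.3 at p of at most 0.01, 70.46, 82.07 and 71.78 after merging, 44.18, 59.4 and 50.92 among genes, and 76.46, 84.61 and 74.51 among proximal peaks. In lists cut to equal size it was 63.54, 79.57 and 79.15, so that pachynema and diplonema were nearly level. It was 79.83 in diplonema when the start lay inside the peak. Pachynema had the highest median under each of these. All called protein-coding genes also had their highest median in pachynema, with 82.94, 84.6 and 78.59 for any start and 82.43, 84.25 and 78.48 at the principal start. The lowest was in diplonema or in leptonema/zygonema, depending on the alternative.

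Without peaks near another gene, 9, 8 and 8 of the other pathway genes were called. Gene-body peaks numbered 2, 2 and 0 at a score of at least 0.5, 2 in leptonema/zygonema at p of at most 0.01, 2 and 2 in the first 2 lists at equal size, and 2 in pachynema and 1 in diplonema away from any other start.

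From leptonema/zygonema to pachynema, 0 genes were higher and 0 lower from a limit of 20 points (Mlh3 was at 19.996), 2 were lower ranked among genes and 0 without shared peaks. From pachynema to diplonema, 2 were higher at equal list size and 2 among genes, and 3 were lower with the start inside the peak and 3 at equal size. Of the single-gene percentiles under an alternative, 168 fell outside the 95% Wilson interval of the percentile as a share of its list, a narrow limit that reflects the number of peaks and no replicate error, and 121 fell within it; the cause was not tested. Mlh3, Rnf212 and Cntd1 were higher in pachynema than in leptonema/zygonema under every alternative that gave a value for both (10, 11 and 10). The size of the difference depended on the alternative and reached 37.66, 39.76 and 35.75 points for these genes. The Mus81 difference from pachynema to diplonema turned to 9.16 points at equal list size, and that of Hfm1 lay between -1.67 and 16.22 points. The peak lists hold no read counts, and the shorter diplonema list limits comparison of its ranks.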

Other observations

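Rec114, which takes part in double-strand break formation, was chosen here after its values were seen. Its score was 0.627 (leptonema/zygonema), 0.959 (pachynema) and 0.285 (diplonema), at percentiles 54.2, 80.7 and 3.48, the same order of substages as Mlh3. Mei4, with which Rec114 acts, had scores of 1.29, 1.17 and 0.53. No replicate error is available for either gene.

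The deposited p-value did not follow the score at every crossover gene. The diplonema peak over the Mus81 start (score 0.326), the pachynema peak of Rnf212 at score 0.388 and that of Hfm1 at score 0.331 were listed with a p-value of 0, while the diplonema peak of Mlh3 (score 0.468) was listed with 0.00520. The percentiles given for the crossover formation genes rest on the score and not on the p-value.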
